A study of Drosophila melanogaster with 2 samples.

Results

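Of the 3170 optimal peaks of GFP-tagged hng2 in Drosophila embryos, 422 (13.3%, exact 95% interval 12.1 to 14.54) had their summit on a core promoter. A summit counted when it lay 0 to 100 bp from the nearest transcription start site (TSS) of any annotated transcript of a protein-coding gene, on build dm6. These 422 peaks are the members described below. Each had a nearest TSS of its own, and 441 protein-coding genes had a TSS within 100 bp of a member. The distance to the TSS chose the members, so their position is given as a description.

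Chromatin immunoprecipitation and sequencing (ChIP-seq) was done on whole embryos, 0 to 14 h old and of both sexes, from a transgenic line that carries CG8359, now named hng2, with GFP at its C terminus. The sample description names an anti-GFP antibody while the antibody entry reads CG8359. There were 2 biological replicates, numbered 2 and 3, in 1 group with no other condition, so shares are given for the pooled optimal list and for the 3170 strongest peaks of each replicate's own list. Read counts are not part of these lists and the depth is unknown; the signal is the authors' own peak value, comparable only within a list. Intervals reflect only the counting of peaks, genes or promoters, none of which are replicates.

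A core promoter is the stretch around the TSS where RNA polymerase II assembles. In Drosophila, housekeeping promoters often carry the DNA replication-related element (DRE), bound by Dref, or Motif 1, while developmental promoters often carry a TATA box, an initiator, a downstream promoter element (DPE) or GAGA repeats. Ribosomal protein genes start within a stretch of C and T that holds the TCT initiator. The protein hng2 belongs to the family with a MADF domain, which contacts DNA, and a BESS domain, which contacts other proteins.

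The TSS regions of the 6 members of highest signal are printed to show the letters beneath the strongest core promoter peaks. They are followed by the strongest member with an initiator (Tep3), a DRE (eEF1gamma), Motif 1 (RpLP0) and a TCT element (RpL7), outside those 6. Each line gives the TSS with 50 bases to each side from the Release 6 genome (dm6), in the gene's direction. Capitals mark a TATA box, initiator, TCT element or DPE core at its usual place on the gene's strand and, on either strand and at any place, a DRE, Motif 1, Motif 6, Motif 7, E-box, GAGA repeat or CTCF core, each spelled out further on. They also mark GCGTTTT and GCGATTT on either strand, 2 words of 7 letters that were picked after all 7-letter words had been counted.
Spn (chr3L:2554242-2554342, minus strand): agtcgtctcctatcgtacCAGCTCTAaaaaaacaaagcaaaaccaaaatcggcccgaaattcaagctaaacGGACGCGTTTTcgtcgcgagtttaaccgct
CG13917 (chr3L:1576649-1576749, plus strand): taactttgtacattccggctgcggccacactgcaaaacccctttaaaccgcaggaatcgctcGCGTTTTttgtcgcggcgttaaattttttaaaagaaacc
Lmpt (chr3L:16891176-16891276, plus strand): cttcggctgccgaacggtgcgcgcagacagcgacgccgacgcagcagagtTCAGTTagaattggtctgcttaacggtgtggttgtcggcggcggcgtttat
InR (chr3R:21619271-21619371, minus strand): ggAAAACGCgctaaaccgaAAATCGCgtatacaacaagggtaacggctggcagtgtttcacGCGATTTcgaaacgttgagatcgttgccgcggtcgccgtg
CG13722 (chr3L:4490913-4491013, minus strand): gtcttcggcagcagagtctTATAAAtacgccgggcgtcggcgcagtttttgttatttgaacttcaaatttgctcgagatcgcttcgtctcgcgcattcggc
Mipp1 (chr3L:16572351-16572451, minus strand): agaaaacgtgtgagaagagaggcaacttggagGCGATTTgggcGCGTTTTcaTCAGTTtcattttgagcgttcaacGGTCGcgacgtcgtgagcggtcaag
Tep3 (chr2L:7702755-7702855, plus strand): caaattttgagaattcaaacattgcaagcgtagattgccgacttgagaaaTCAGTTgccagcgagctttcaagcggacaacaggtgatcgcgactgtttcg
eEF1gamma (chr3R:29220122-29220222, plus strand): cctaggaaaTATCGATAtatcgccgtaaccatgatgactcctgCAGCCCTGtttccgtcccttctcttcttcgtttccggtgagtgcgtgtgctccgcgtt
RpLP0 (chr3L:22076042-22076142, plus strand): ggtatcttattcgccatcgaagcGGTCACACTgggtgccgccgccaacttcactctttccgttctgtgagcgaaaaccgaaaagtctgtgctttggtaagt
RpL7 (chr2L:10201050-10201150, plus strand): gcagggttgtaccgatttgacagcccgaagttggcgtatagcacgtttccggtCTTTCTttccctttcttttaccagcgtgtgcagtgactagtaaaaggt
At least 1 of these 2 words stands in the printed window of 4 of the 6 strongest members, Spn, CG13917, InR and Mipp1. The InR window holds 3 of them, and the Mipp1 window holds each word upstream of an initiator.

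The summits lay densest inside 250 bp of a TSS. The 422 members fell within the 2.65% of main-arm bases that lie 0 to 100 bp from a protein-coding TSS. Per megabase, there were 105 summits at 0 to 25 bp, 110 at 26 to 50 bp, 124 at 51 to 100 bp and 100.4 from there to 250 bp, against 44.96 beyond 250 and up to 500 bp and 15.2 beyond 1000 bp. The density was thus not highest at the TSS itself in the pooled list. The replicates differed here: from the nearest bin outward to 100 bp, replicate 2 had 93.99, 73.9 and 125 summits per megabase, and replicate 3 had 162, 189 and 153. Replicate 2 put 379 of its 3170 strongest peaks on core promoters (11.96%) and replicate 3 put 600 (18.9%), a mean of 15.4% ± 4.93 (SD, n = 2). The difference between the replicates was 6.97 percentage points (Newcombe 95% interval 5.2 to 8.74), while beyond 100 and up to 500 bp it was -1.36 points (-3.49 to 0.774).

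**Figure D1:**
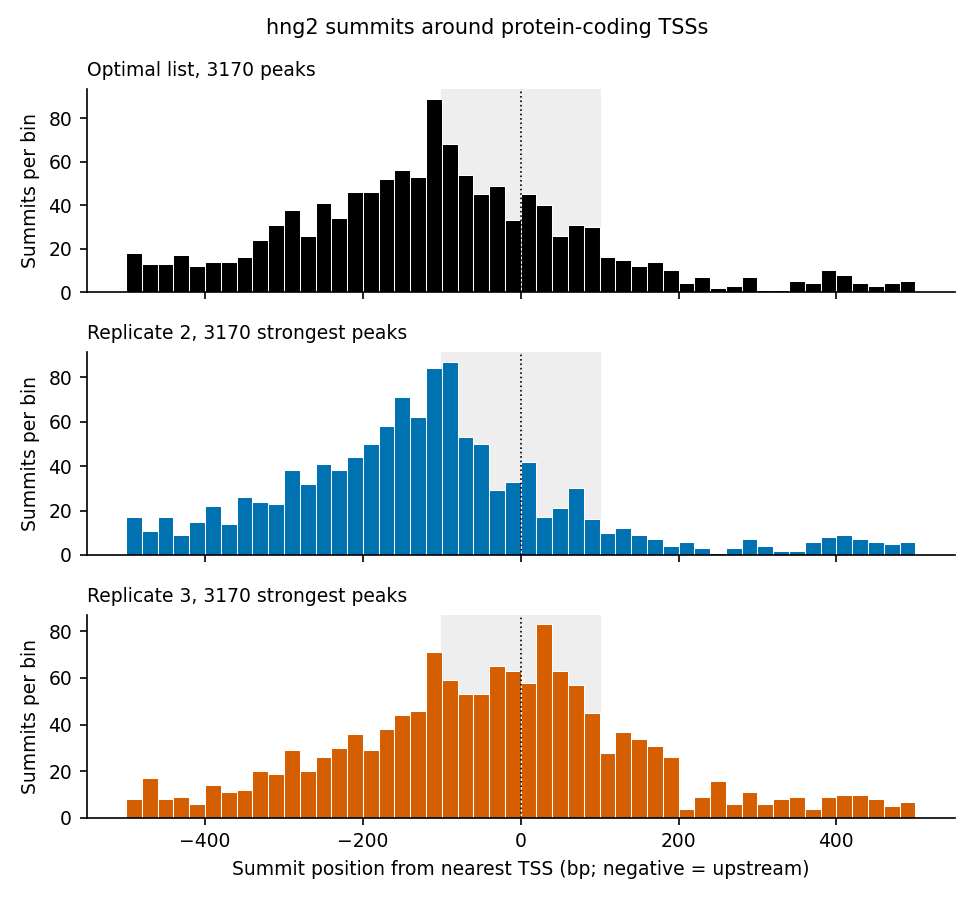
Summits per bin of 20 bp (vertical axis) by position from the nearest protein-coding TSS in bp (horizontal axis, negative is upstream) in the optimal list and in the 3170 strongest peaks of each replicate; the grey band marks the members' range. In replicate 2 the core promoter summits lie mostly upstream, with a median of -41 bp, and in replicate 3 they are spread about the TSS, with a median of 4 bp.

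More members lay upstream than downstream of their TSS. Of the 421 members not exactly at a TSS, 249 were upstream (59.1%, 54.3 to 63.9), and the median position was -24 bp. The 789 optimal peaks beyond 100 and up to 500 bp, the flanking peaks, were upstream in 82.8% of cases, and members minus these differed by -23.6 points (-29.0 to -18.2). The members' upstream share was 67.0% in replicate 2 and 49.0% in replicate 3, a mean of 58.0% ± 12.7 (SD, n = 2), and the replicates differed by 18.02 points (11.7 to 24.1). The excess upstream in the pooled list was therefore found in replicate 2 and not in replicate 3.

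Core promoter peaks were found at all signal levels of the list. Their median rank by signal was 1551 of 3170, against 1372 for the flanking peaks and 1669 for those farther away. In replicate 2 these medians were 1486, 1316 and 1715.5. In replicate 3 they were nearly alike, at 1595.5, 1597.5 and 1582, so the pooled order was not found there. The 10% of the optimal list with the highest signal held 46 members. That is 10.9% of the members, against 9.86% of the other peaks (difference 1.04 points, -1.84 to 4.54). The same difference was 4.23 points in replicate 2 (0.92 to 8.19) and -2.47 points in replicate 3 (-4.75 to 0.227). Below the 3170 strongest, the longer pooled list of 30000 peaks had 7.48% of its summits on core promoters.

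The strongest member lay at Spn, which encodes spinophilin, a scaffold protein that binds protein phosphatase 1. Its signal was 10883 (rank 6) in the optimal list, 5902 (rank 7) in replicate 2 and 5104 (rank 5) in replicate 3. The 3 summits lay at -6, -17 and -5 bp from the TSS. CG13917 followed with a signal of 6861 (rank 11), and with ranks 11 and 12 in replicates 2 and 3. Its summit was at 8 bp in the optimal list, 8 bp in replicate 2 and 13 bp in replicate 3. At both genes the replicates thus placed the peak near the same rank and within 12 bp of each other.

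InR, the insulin receptor gene, had a signal of 5223 (rank 17), with ranks 25 and 16 in the replicates and summits at 11 and 2 bp. Mipp1, which encodes an inositol polyphosphate phosphatase, had a signal of 5020 (rank 21) with ranks 27 and 17 in the replicates. Tep3, a gene of the thioester-containing proteins of innate immunity, had a signal of 4894 (rank 22) with its summit at 73 bp. All 3 ranked within the first 27 peaks of both replicates.

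At srp, which encodes the GATA factor needed for blood cells and fat body, the signal was 4650 (rank 24) and the summit lay at 52 bp. Ac76E, which encodes an adenylyl cyclase, had a signal of 3937 (rank 27) and a summit at 7 bp. The homeobox gene lbl had a signal of 2298 (rank 59), and NetB, which encodes a netrin that guides axons, 1749 (rank 77). The other members among the 20 strongest were, in order of signal, at Lmpt, CG13722, CG10311, CG4374, CG42637, snu, Ugalt, CG43737, CG14100, CG15322 and Chro, with signals from 6412 at Lmpt to 1427 at Chro, which encodes the chromodomain protein Chromator. All 20 were among the 3170 strongest peaks of both replicates, and 16 of the 20 had their summit downstream of the TSS, the opposite side from most members.

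Ribosomal protein genes were the gene group with the most members. Of all 13968 protein-coding genes, 441 had a member (3.16%), and of the 91 ribosomal protein genes, 54 had one (59.3%, 48.5 to 69.5). In replicate 2 the count was 55 of 91, where 2.90% of all protein-coding genes had a core promoter peak, and in replicate 3 it was 47 of 91, where 4.38% had one. The mean of the replicates was 51 ± 5.66 genes (SD, n = 2), and 42 of the 91 were found in both. Members stood at 34 of 53 genes of the large subunit and at 20 of 38 of the small subunit. Of the 37 ribosomal protein genes with no member, 8 had a core promoter peak in a replicate's list. The list of 91 was broad, and RpL24-like, RpL7-like and RpLP0-like were among the 37. So were RpS5b, RpS14b and RpS28a, while the genes of paired name, RpS5a, RpS14a and RpS28b, had members.

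The peaks at ribosomal protein genes were of middling strength. Their signals ran from 142 to 759 with a median of 264, and the median rank was 1118. The members at other genes had a lower median signal, 210, and a median rank of 1628. Only 2 of the 54 were in the 10% of highest signal, against 44 of the 368 other members. RpS27 was the strongest, with a signal of 759 (rank 201) and ranks of 165 and 449 in replicates 2 and 3. RpLP0, which encodes a protein of the ribosomal stalk, had a signal of 586 (rank 290) and ranks of 284 and 379. RpL7 had a signal of 511 (rank 365) and ranks of 369 and 361, so that 3 lists placed it alike.

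The summits at ribosomal protein genes lay close to the TSS. They were within 50 bp in 42 of 54 members (77.8%) and in 161 of the 368 others (43.8%), a difference of 34.0 points (20.3 to 44.3). Both replicates held the peak among their 3170 strongest in 42 of 54 (77.8%), against 177 of 368 (48.1%), a difference of 29.7 points (15.98 to 40.03). The ribosomal protein members also ranked higher by signal, with a median rank of 1118 against 1628. Of all members in the upper 50% of the list by signal, 82.1% were held by both. The part of signal in the difference was not tested. Only 6 of the 54 ribosomal protein genes had another optimal peak in the gene or within 2000 bp, against 131 of the other 387 genes with a member, but their median length was 1430.5 bp against 4354 bp.

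At these genes replicate 3 placed the summit farther downstream than replicate 2. Among 53 ribosomal protein members with a summit within 200 bp in both replicates' lists, the median position was -32 bp in replicate 2 and 17 bp in replicate 3. Replicate 3's summit lay downstream of replicate 2's in 43 of the 52 that differed (82.7%, 69.7 to 91.8), in 17 of 24 genes on the plus strand and in 26 of 28 on the minus strand. At the other members the medians were -21 and -5 bp, and replicate 3's summit was the more downstream in 181 of 338 (53.6%). In 21 of the 53 replicate 2's summit was upstream and replicate 3's downstream of the TSS, in none the reverse, and the others had both on 1 side or a summit at the TSS. At RpS27 the replicate summits lay at 4 and 87 bp, at RpLP0 at -43 and -18 bp, and at RpL7 at -46 and -6 bp. What this shift between the replicates comes from was not tested.

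**Figure D2:**
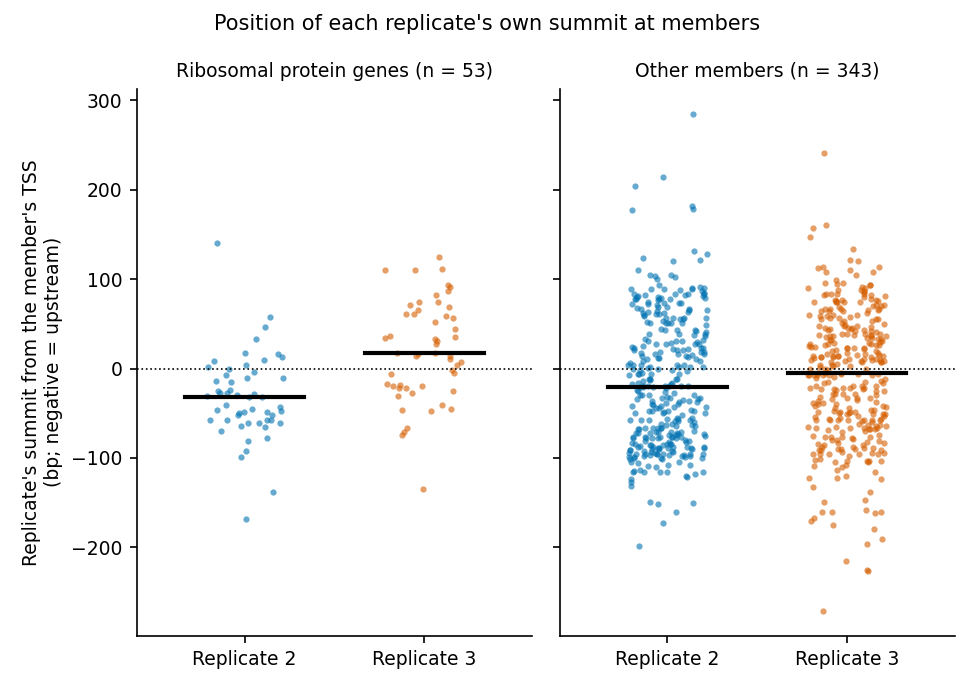
Position of each replicate's own summit from the member's TSS in bp (vertical axis, negative is upstream) at members of ribosomal protein genes and at other members. Summits are taken from each replicate's full list. Each dot is a member, the bars are medians and the horizontal spread is for display. At ribosomal protein genes the median moves from -32 bp in replicate 2 to 17 bp in replicate 3, and at the other members from -21 to -5 bp.

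The starts of 4 further ribosomal protein genes are printed to show how the C and T letters lie about their TSSs. They are the strongest such members not printed above apart from RpL41, which is not shown, each with 20 bases to each side of the TSS in the gene's direction, on dm6. Capitals mark the longest unbroken run of C and T in the printed window.
RpL14 (chr3L:8600986-8601026, plus strand): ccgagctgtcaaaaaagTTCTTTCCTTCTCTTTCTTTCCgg
RpL28 (chr3L:3222940-3222980, minus strand): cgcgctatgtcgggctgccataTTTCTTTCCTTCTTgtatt
RpL13A (chr3R:5624454-5624494, plus strand): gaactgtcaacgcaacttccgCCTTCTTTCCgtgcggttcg
RpS27 (chr3R:25247494-25247534, minus strand): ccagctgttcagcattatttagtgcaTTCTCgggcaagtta
The run is 22 letters long in RpL14, 14 in RpL28, 10 in RpL13A and 5 in RpS27, and only the RpL14 run covers the annotated TSS. The RpL28 run starts 2 bases and the RpL13A run 1 base downstream of it. An unbroken run of at least 8 C or T over the TSS, a measure chosen after the sequences had been seen, stood in 19 of 54 ribosomal protein members (35.2%, 22.7 to 49.4), in 6 of 368 other members (1.63%) and in 1.46% of the 12298 core promoters with no peak.

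Other gene groups had fewer members, and in 5 of them the lower bound of the interval lay above the 3.16% of all genes. Of 35 genes of dorsoventral patterning and mesoderm, 7 had a member (20%, 8.44 to 36.9), among them srp, NetB and pyr, an FGF ligand. They were 5 in replicate 2 and 9 in replicate 3. Of 39 neuronal genes, 7 had a member (17.9%, 7.54 to 33.5), led by the cell adhesion gene Con (signal 240) and the axon guidance receptor genes robo2 (170) and Dscam1 (167). The neuronal count was 2 in replicate 2 and 9 in replicate 3, so the pooled count leaned on replicate 3.

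Of 21 nuclear receptor genes 4 had a member (2 in replicate 2 and 4 in replicate 3), with Eip75B, which responds to ecdysone, the strongest at a signal of 451, followed by Hr78 (299) and Hr96 (237). Polycomb and Trithorax group genes had members at 5 of 37 (4 and 6 in the replicates), led by the histone demethylase gene Kdm5 (306), corto (217) and ph-d (155); ph-d lies beside its close copy ph-p, which also had one. Homeobox regulators had members at 5 of 43 (2 and 5 in the replicates), led by lbl, Dll (323) and lbe (216). In replicate 2 some of these groups had an interval that included the 2.90% of all genes. They were the neuronal genes (0.627 to 17.3%), the nuclear receptors (1.17 to 30.4%) and the homeobox regulators (0.568 to 15.8%). In replicate 3 the interval of the homeobox regulators (3.89 to 25.1%) also included its 4.38% of all genes. This group thus lay above the share of all genes in the pooled list but in neither replicate's own list. The lists were described and not tested, and 24 were looked at.

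Translation factor genes had members at 5 of 53 (9.43%, 3.13 to 20.7), with eEF1gamma (signal 650), eEF2 (239) and eEF1alpha1 (221) the strongest, and with 7 in each replicate. Insulin and TOR genes had 3 of 27 (InR, Pi3K21B and Thor), segmentation genes 3 of 33 (hry, ptc and arm), heat shock genes 3 of 28 (Hsp83, Hsc70-5 and Hsp26) and cell cycle genes 3 of 50 (Cdc7, dup and p53). Insulator protein genes had 2 of 18, Chro and Dref, and the Dref TSS shared its member with that of RpL13. The dup TSS likewise shared its member with that of SRPK. RNA polymerase II genes had 2 of 16 (Polr2B and Polr2A), and hemocyte and tracheal genes 2 of 27 (srp and Pvf3). In these 8 groups the interval included the 3.16% of all genes. In replicates 2 and 3 the counts were 1 and 5 for insulin and TOR genes, 1 and 7 for segmentation genes, 3 and 1 for heat shock genes, 5 and 4 for cell cycle genes, 3 and 2 for insulator protein genes, 1 and 0 for RNA polymerase II genes and 1 and 3 for hemocyte and tracheal genes. The 7 of 33 segmentation genes in replicate 3 (21.2%, 8.98 to 38.9) lay above its 4.38% of all genes. So did its insulin and TOR genes (6.3 to 38.1%). Translation factor genes (13.2%, 5.48 to 25.3, in each replicate) lay above the share of all genes in both. In replicate 2 the cell cycle genes (3.33 to 21.8%) and the insulator protein genes (3.58 to 41.4%) lay above its 2.90% of all genes.

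The remaining groups had few members or none. Mitochondrial ribosomal protein genes had members at 2 of 75 (mRpL23, signal 690, and mRpL2, 361), respiratory chain genes at 2 of 96 (levy and ND-51) and aminoacyl-tRNA synthetase genes at 1 of 32 (SerRS). The mRpL2 TSS shared its member with that of FoxK, and the SerRS TSS with that of CG17260. Cuticle protein genes had 1 of 122 (Cpr76Bc, signal 716) and gut and fat body genes 1 of 24 (srp again). No member stood at 48 proteasome genes, which allows a share of up to 6.25%, at 180 chemosensory receptor genes (up to 1.67%), at 30 muscle genes (up to 10.0%) or at the 9 listed genes of the MADF and BESS family (up to 33.3%). Replicate 3's own list did have core promoter peaks at 3 of the muscle genes, 2 of the proteasome genes and 1 of the MADF and BESS genes, and replicate 2's had none there. No member stood at 115 histone genes (up to 2.61%), most of which lie in tandem repeats where reads cannot be placed singly, so this count says little.

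**Figure D3:**
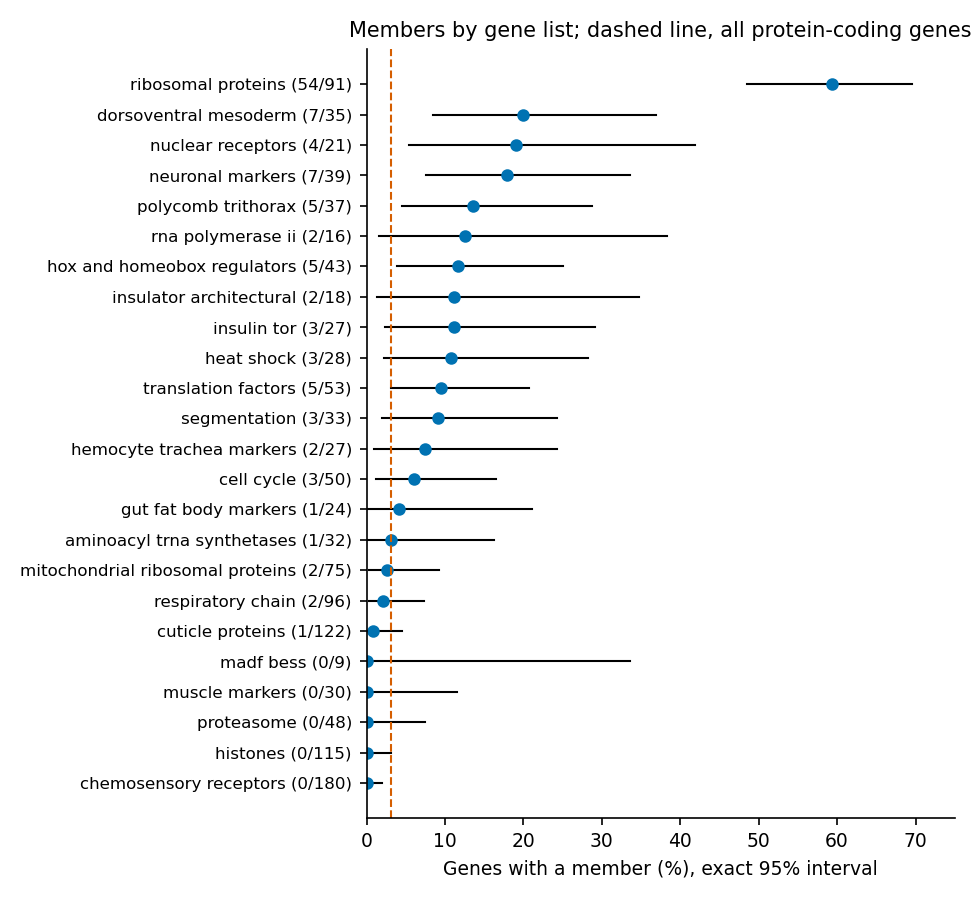
Share of the genes of each list with a member in percent (horizontal axis) with its exact 95% interval; counts stand beside the list names, and the dashed line is the 3.16% of all protein-coding genes. Ribosomal proteins, at 59.3%, lie apart from the other 23 lists, whose points lie at or below 20%.

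Member promoters were often shared with a divergent neighbour. A TSS of another protein-coding gene stood upstream on the other strand within 500 bp at 157 of 422 members (37.2%) and at 22.2% of the other protein-coding TSSs, a difference of 15 points (10.5 to 19.7). Replicate 2 showed a larger difference, with 47.5% and 25.5 points (20.4 to 30.5). Replicate 3 had 24.8%, and its difference of 2.37 points (-0.973 to 6.03) did not exclude 0. At divergent pairs 107 of 157 members lay upstream of their nearest TSS (68.2%), that is on the side of the neighbour, against 142 of 264 elsewhere (53.8%).

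Genes with several start sites had members more often. A member stood at 1.76% of the genes with 1 TSS position, 5.73% of those with 2, 9.86% of those with 3 to 4 and 10.5% of those with 5 or more; a gene with more start sites also offers more bases to be counted. Genes with a member were long, with a median of 3866 bp against 2164.5 bp over all protein-coding genes. A further optimal peak in the gene or within 2000 bp was found for 31.1% of them and for 16.0% of other genes (difference 15.1 points, 10.9 to 19.6), and the part of gene length in this was not tested. The X held 13.3% of members (10.18 to 16.88) and 16.93% of TSS clusters, so that only the upper end of the interval lay just below the share of TSS clusters. In replicate 3 it held 13.3% of core promoter peaks (10.7 to 16.3). In replicate 2 it held 13.5% (10.2 to 17.3), an interval that included the share of TSS clusters. On every other arm the interval of the members included it too. None of these intervals is widened for the number of arms.

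Of 13 motifs searched on both strands within 100 bp of the TSS, 5 differed between the 422 members and the 12298 core promoters of genes with no optimal summit within 500 bp, by an interval widened for the 13 motifs. Motif 7, spelled CAGCNCTA, CAGCNCTG, CATCNCTA or CATCNCTG, stood at 21.3% of members and 14.2% of the promoters with no peak. The E-box CAGCTG stood at 18.7% and 13.1%. The GAGA repeat, spelled GAGAGAG and bound by GAGA factor, stood at 8.77% and 3.34%. The TATA box TATAAA was less common at members, with 23.2% against 29.9%, and so was the initiator, TCAGTC or TCAGTT, with 23.2% against 29.9%. Set against 755 TSSs at flanking peaks, members had less of the initiator (23.2% against 34.6%) and the DPE core (56.9% against 67.4%) and more of Motif 7 (21.3% against 14.0%) and the BEAF-32 pair (17.8% against 11.3%). In replicate 3 none of the 13 motifs was past the widened interval in that comparison, and in replicate 2 there were 7. The GAGA repeat was no more common at members than at TSSs of flanking peaks, with 8.77% against 11.9%. That difference of -3.15 points was short of the widened interval (-8.16 to 2.53). At its usual place, within 10 bp of the TSS on the gene's strand, the initiator stood at 8.53% of members and 9.27% of promoters with no peak, a difference of -0.74 points (-3.10 to 2.36). The TATA box from -40 to -20 bp stood at 2.84% and 7.68%, a difference of -4.84 points (-6.14 to -2.73). With the ribosomal protein members left out, that difference was -4.70 points (-6.09 to -2.37). The DPE core from 20 to 40 bp stood at 11.4% and 7.36%, a difference of 4.02 points (1.29 to 7.43). TSSs at flanking peaks differed alike from promoters with no peak for 2 of these placed motifs. There the TATA box stood at 3.05% (-4.64 points, -5.76 to -3.09) and the DPE core at 12.3% (4.96 points, 2.75 to 7.54). The placed initiator was more common there, at 16.0% (6.76 points, 4.26 to 9.59). These placed intervals are not widened. Within 100 bp of the TSS and without the ribosomal protein members, the TATA box difference was -5.73 points (widened interval -11.7 to 1.35). The initiator difference was then -4.62 points (-10.7 to 2.53), and neither was past the widened interval. In windows of 50 bp to each side of the TSS the GAGA difference was 0.56 points in place of 5.43, and in windows centred on the summit the E-box difference was 0.66 points in place of 5.64. A match describes letters and not a bound site, and members had a median GC content of 44% against 41% at promoters with no peak.

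Against promoters with no peak, each replicate's core promoter peaks were past the widened interval for 3 motifs. These were not the same 3, although some directions were shared. In replicate 2 Motif 7 (23.0%) and the E-box (18.2%) were more common than at promoters with no peak and the initiator (19.5%) was less common. In replicate 3 the DPE core, spelled NGNCG with A or G first and A or T in the middle, was more common, at 68.7% against 53.9%, as was the GAGA repeat, at 87 of 600 promoters against 3.14%, and the TATA box was less common, at 16.8% against 30.4%. Motif 7 and the E-box were also more common in replicate 3, by 3.16 points (95% interval 0.249 to 6.47) and 3.55 points (0.703 to 6.81), and the TATA box was also less common in replicate 2, by -5.62 points (-9.75 to -0.991), short of the widened interval. The GAGA repeat stood at 5.28% in replicate 2, a difference of 1.83 points from promoters with no peak (-0.0368 to 4.58). Against promoters with no peak, the remaining motifs were past the widened interval in none of the 3 lists. These were Motif 1 (GGTCACACT), the DRE (TATCGATA), Motif 6 (GTATATTT or GTATTTTT), the TCT element (CTTTTT or CTTTCT) and the CTCF core (AGNNGGCGC). The BEAF-32 pair and the Zelda site (CAGGTAG) were the others. Against TSSs at flanking peaks, replicate 2 was past it for the DRE (10.0% against 3.36%) and Motif 6 (10.3% against 5.43%). The BEAF-32 pair was past it there too (20.3% against 11.1%).

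**Figure D4:**
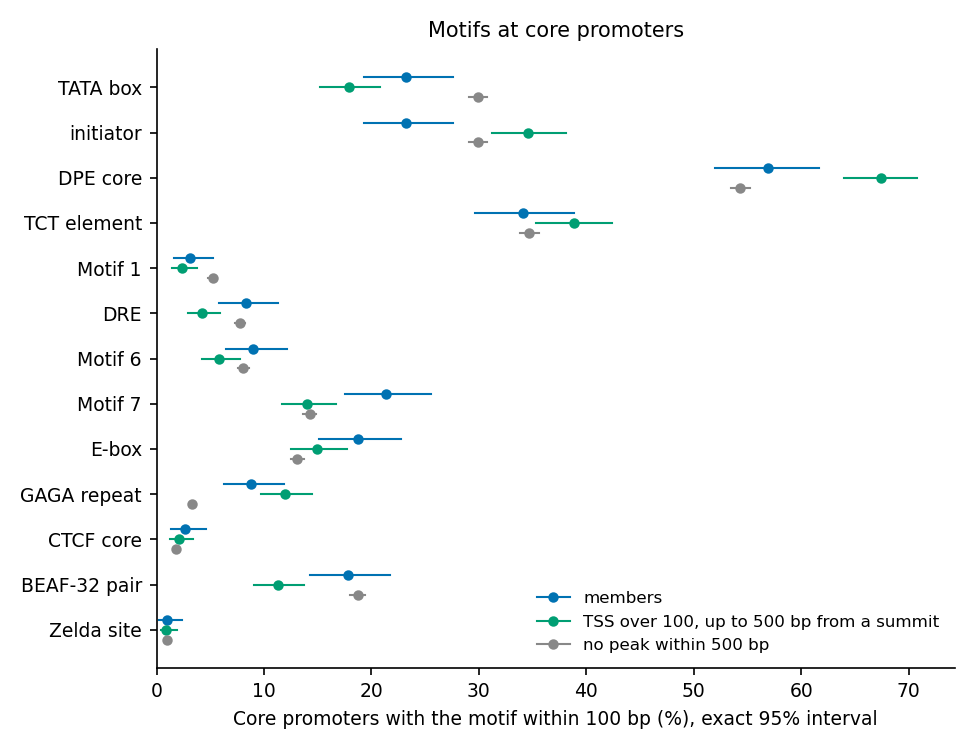
Share of core promoters with each motif within 100 bp of the TSS in percent (horizontal axis) with exact 95% intervals, for the 422 members, 755 TSSs nearest to optimal summits beyond 100 and up to 500 bp away and 12298 core promoters with no optimal summit within 500 bp. The GAGA repeat stands at 8.77% of members, 11.9% of TSSs at flanking peaks and 3.34% of promoters with no peak. For the initiator these shares are 23.2%, 34.6% and 29.9%.

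Members at ribosomal protein genes carried other motifs than the remaining members. The TCT element stood at 68.5% of the 54 and at 29.1% of the 368 others, a difference of 39.4 points (25.3 to 51.1). Within 10 bp of the TSS on the gene's strand it stood at 14 of 54 (25.9%) and at 3 of 368 (0.815%). The DRE stood at 25.9% and 5.71%, Motif 1 at 11.1% and 1.90% and Motif 6 at 20.4% and 7.34%. The BEAF-32 pair, which is CGATA at least 2 times on either strand and which every DRE fulfils by itself, stood at 35.2% and 15.2%. All 5 of these differences were past the widened interval. The GAGA repeat stood at none of the 54 and at 37 of the 368 (10.1%), and the initiator at its usual place at none of the 54 and at 36 of the 368 (9.78%).

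Among words of 7 letters, counted with their reverse complements, the ribosomal protein members and the other members had different leaders. TTTCTTT stood at 51.9% of ribosomal protein members, 6.25% of other members and 4.49% of promoters with no peak. TTTCCGG stood at 40.7%, 2.99% and 1.12% of the same classes. At the other members the largest excess was that of GCGTTTT, at 9.24% against 2.42% of promoters with no peak, followed by CAGCTGT, which holds the E-box, at 11.4% against 5.10%, and by GCGATTT, at 7.61% against 2.07%. These words were chosen by their counts, so the values are a description.

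GCGTTTT and GCGATTT were more frequent beneath the strongest members than beneath the rest, with 35 of the 73 members with a word among the 105 strongest. At least 1 of them stood within 100 bp of the summit at 15 of the 20 strongest members (75%), and at 35 of the 105 members of highest signal (33.3%), all with a signal of at least 327. The following groups of 106, 105 and 106 members by falling signal held them at 8.49%, 14.3% and 13.2%. Over all members the share was 17.3%, against 8.37% of the flanking peaks and 10.6% of those farther away, and 9.64% of promoters with no peak held a word within 100 bp of the TSS. Of members held by both replicates 22.4% had a word, of those held by replicate 2 alone 6.54% and of those held by replicate 3 alone 19.5%. These 2 words were chosen in these same sequences, so no test is given.

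The members held by both replicates were about as common as among other peaks, but the replicates' own shares differed. Both had a summit within 100 bp among their 3170 strongest peaks at 219 of 422 members (51.9%), where 50.4% of all optimal peaks were so held, and the difference from the other peaks was 1.71 points (-3.40 to 6.80). Replicate 2 alone held 107 members (25.4%) against 35.4% of other peaks, a difference of -10.02 points (-14.3 to -5.31). Replicate 3 alone held 82 (19.4%) against 11.4%, a difference of 8.08 points (4.37 to 12.3). The remaining 14 members were in neither set. Taken from each replicate's own list, replicate 2's core promoter peaks were held by replicate 3 in 54.9% of cases against 49.4% of its other peaks (difference 5.51 points, 0.144 to 10.8). Replicate 3's were held by replicate 2 in 37.3% against 52.996% of its other peaks (-15.7 points, -19.9 to -11.3).

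The members held by 1 replicate alone were of different kinds. Divergent gene pairs made up 66 of the 107 held by replicate 2 alone (61.7%) and 5 of the 82 held by replicate 3 alone (6.10%), a difference of 55.6 points (43.6 to 64.9); among those held by both it was 37.9%. The TATA box stood at 39.3% of the first and 9.76% of the second (difference 29.5 points, 17.4 to 40.1). The GAGA repeat went the other way, with 3 of 107 (2.80%) and 18 of 82 (21.95%), a difference of -19.1 points (-29.4 to -9.99). The DPE core stood at 47.7% and 64.6% (-30.2 to -2.67) and the initiator at 19.6% and 32.9% (-25.8 to -0.756). Summits lay upstream in 75.7% and 43.9%. For Motif 7, the DRE and the E-box the intervals of the difference included 0. Of the 10 features compared these intervals are not widened.

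**Figure D5:**
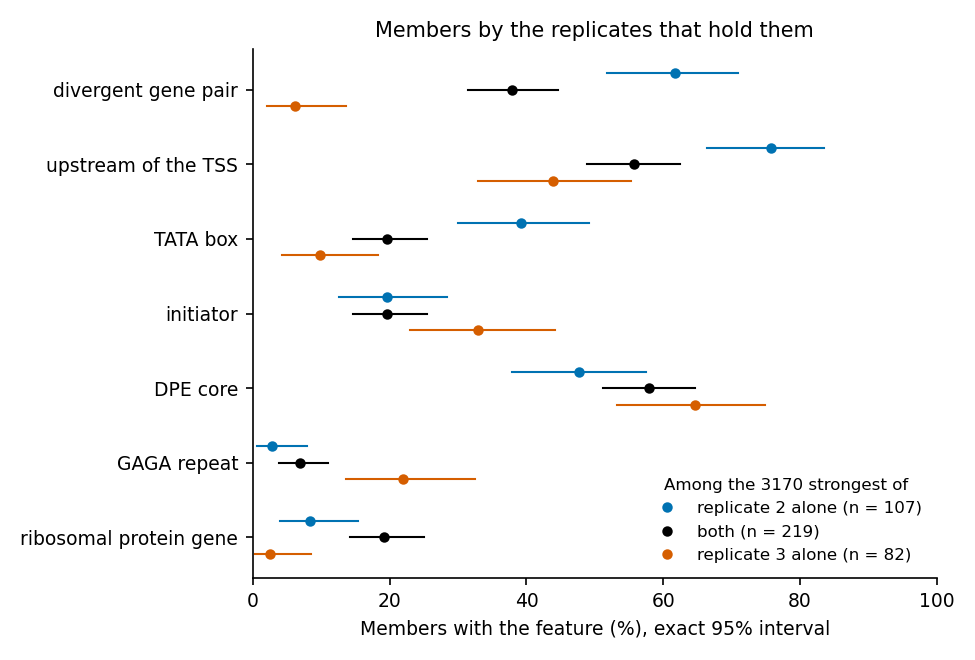
Share of members with each feature in percent (horizontal axis) with exact 95% intervals, for the members held among the 3170 strongest peaks of replicate 2 alone, of both replicates and of replicate 3 alone. Divergent gene pairs fall from 61.7% to 6.10% between the groups held by 1 replicate, and the GAGA repeat goes from 2.80% to 21.95%.

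Single genes showed the same contrast. The axon guidance gene robo2 (ranks 4769 and 809 in replicates 2 and 3) and ptc, which encodes the receptor of Hedgehog (ranks 9188 and 652), ranked far higher in replicate 3. At Thor, which encodes the translation inhibitor 4E-BP, the nearest peaks within 200 bp of the pooled summit had ranks of 23106 and 618, and at Dscam1 8978 and 467. At Hsc70-5 (ranks 1257 and 6358) and ND-51 (ranks 2424 and 9309), both at divergent pairs, replicate 2 ranked the higher, and so it did at Polr2B, where the nearest peaks within 200 bp of the pooled summit had ranks of 760 and 5499. These genes were named as members of the gene lists, and the contrast between them was picked out after their ranks were seen.

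At the edge of the distance rule, the members at exactly 100 bp were at CG9586 (signal 229), Apc (193) and Dysb (150), and the peaks left out by 1 bp were at oxt (197) and Atg8a (162). The 3 members of lowest signal lay at Srpk79D (137.37), CG43759 (137.28) and Dr (137.12), close to the lowest signal of the whole list. CG43759 was at rank 600 in replicate 3 and had no replicate 2 peak within 100 bp of the pooled summit, while Srpk79D was at ranks 2536 and 13525. Weak members of the pooled list thus included peaks that ranked in the upper part of 1 replicate.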

How the data were processed

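ChIP-seq peaks on dm6 from 2 biological replicates and from both pooled were used. Per the submitters' deposited file lists, relaxed peaks were called against a control, and an optimal list was made with the irreproducible discovery rate. For its threshold, the peak caller and the aligner no name or value was given in those lists or the labels. The deposited lists give a signal value per peak, used for ranks, the authors' -log10 q-value, which was not used further, and a summit offset. The dm3 lists were not used here.

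Summits on arms 2L, 2R, 3L, 3R, 4, X and Y were joined to TSSs of 13968 protein-coding genes (Ensembl release 115) and to the Release 6 sequence from RefSeq, with Python 3.11.15, NumPy 2.4.6 and SciPy 1.17.1. The depth is unknown. Shares carry exact (Clopper-Pearson) and differences Newcombe 95% intervals, widened to 99.6% for the 13 motifs. For a count of 0 the limit given is 3 counts, not the upper end of the exact interval, which lies higher. For the 48 proteasome genes it is 6.25% against 7.40%, and for the 115 histone genes 2.61% against 3.16%. The genes named were the 20 strongest members, up to 3 per gene list, those at the distance limit and the 3 weakest. Members, lists and motifs were chosen with earlier results of these data known. The distance, side and motif steps were tested on simulated data. Alternatives changed the distance, the TSS set, the list, the window and the replicate.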

Additional observations from a re-analysis of the deposited data

How the results depend on the processing

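The member share of 13.3% became 6.404% with a limit of 50 bp and 24.8% with 200 bp, which follows from the rule. Using only 1 replicate's list, it ran from 11.96% to 18.9%. The upstream share of 59.1% was 49.0% with replicate 3 alone, which reverses the side, and 67.0% with replicate 2 alone. It was 52.5% with the 50 bp limit and 69.5% with the 200 bp limit. The share held by both replicates, 51.9%, rose to 82.1% in the upper 50% of the list by signal, and from a single replicate's list it ran from 37.3% to 54.9%. The 5 motifs past the widened interval became 1 with the 50 bp limit, 2 in the upper 50% by signal, and 3 with the TSSs of all genes, with windows at the summit and with the ribosomal protein members left out, the last chosen after seeing the data. With either replicate alone there were 3. The initiator's difference from promoters with no peak, -6.67 points, became 1.08 points with replicate 3 alone, -10.5 points with replicate 2 alone and -11.1 points in the upper 50% by signal. The GAGA difference of 5.43 points was 0.56 with windows of 100 bp at the TSS, 1.70 in the upper 50% by signal, 2.82 at the summit, 1.83 with replicate 2 alone and 11.4 with replicate 3 alone. The E-box difference of 5.64 was 0.66 at the summit, 1.69 with the 50 bp limit and 3.55 with replicate 3 alone. Motif 7's 7.08 was 3.49 with the 50 bp limit and 3.16 with replicate 3 alone, and the TATA box's -6.69 was -2.90 at the summit and -13.5 with replicate 3 alone. The cause of these changes was not tested. The count of 54 ribosomal protein genes ran from 40 to 60, and the share at divergent pairs from 24.8% to 47.5%, over all alternatives run. No paired analysis was possible because there was 1 group.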

Other observations

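Values outside the comparisons above concern the members' shapes. Of the 422 members 360 (85.3%) had a peak interval of exactly 400 bp, and 4 shared their interval with another optimal peak. In the full relaxed lists, replicate 2 had a summit within 100 bp of 396 members and replicate 3 of 378. At 25 members the limit of 100 bp took in a second gene, as for RpL13 and Dref.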
